A study of Mus musculus with 6 samples.

Results

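*Dppa2*, *Dppa3*, *Dppa4* and *Dppa5a* are the 4 developmental pluripotency associated (Dppa) genes described here, chosen by name among the 22380 gene identifiers listed for each of 6 mouse embryonic stem cell (mESC) lines. All 4 were listed in every line, and all 4 passed the filter of a mean of at least 10 normalized counts. The 3 *Ctrl* lines carried a tamoxifen-activated Cre (*CreERT2* wt/ki) and a Cre-activated H2B-EGFP reporter in *Gt(ROSA)26Sor* (wt/ki). The 3 *Tet iTKO* lines carried the same alleles together with *loxP*-flanked *Tet1*, *Tet2* and *Tet3*, the genes of the dioxygenases that oxidize 5-methylcytosine. Both groups received 1 µM tamoxifen (4-OHT) for 2.5 days and were grown for 4 more days in 2i medium on fibroblast feeders, so that the *Ctrl* cells also had active Cre. RNA was taken at day 6.5 from live EGFP+, CD326+, Thy1.2- cells and measured with Smart-Seq2 libraries. Each line came from a different embryo, and the deposited values are counts normalized to the library and rounded to whole numbers.

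The Dppa genes do not form 1 family, and were named together because their transcripts mark pluripotent cells. DPPA2 and DPPA4 are DNA-binding proteins with a SAP domain that form a heterodimer, bind CpG-rich promoters and are activators of *Dux* and other genes of the early embryo. DPPA3 (STELLA, PGC7) is a maternal protein that shields methylated DNA from TET3 in the zygote and binds UHRF1, which brings the methyltransferase DNMT1 to newly replicated DNA. DPPA5A (ESG1) is an RNA-binding protein with a KH domain, of the same family as OOEP (KHDC2) and KHDC3, which belong to the subcortical maternal complex of the oocyte.

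All 4 genes have close copies elsewhere in the genome, most of them annotated as processed pseudogenes, and only reads with a unique alignment were counted. In the GENCODE M21 transcripts, 81.3% of the 50-base words in the *Dppa2* coding sequence occurred in transcripts of other genes, against 61.0% for *Dppa4*, 56.2% for *Dppa5a* and 34.4% for *Dppa3*. Reads are counted over the whole gene, where the shares were smaller and in another order. Over all annotated transcripts of each gene they were 38.6% for *Dppa5a*, 31.3% for *Dppa4*, 29.1% for *Dppa2* and 16.5% for *Dppa3*. The number of genes that shared such words was 7 for *Dppa2*, 3 for *Dppa3*, 2 for *Dppa4* and 9 for *Dppa5a*. The last 120 coding bases of each gene show how near the copies are, with capitals for the bases that differ from the closest copy.
*Dppa2*: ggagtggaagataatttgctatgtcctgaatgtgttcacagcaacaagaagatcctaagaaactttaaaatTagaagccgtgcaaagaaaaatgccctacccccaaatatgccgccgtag
*Dppa3*: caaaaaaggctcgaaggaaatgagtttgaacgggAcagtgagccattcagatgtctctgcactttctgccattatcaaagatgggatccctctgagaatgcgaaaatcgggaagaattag
*Dppa4*: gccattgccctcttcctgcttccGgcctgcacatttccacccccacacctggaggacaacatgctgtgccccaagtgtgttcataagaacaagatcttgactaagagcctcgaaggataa
*Dppa5a*: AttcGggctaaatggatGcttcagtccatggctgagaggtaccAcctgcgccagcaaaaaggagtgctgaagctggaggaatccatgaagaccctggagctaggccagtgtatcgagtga
These bases are spliced and lie in exons of the GRCm38 genome, at chr16:48317443-48318711 (plus strand) for *Dppa2*, chr6:122629313-122630005 (plus strand) for *Dppa3*, chr16:48293021-48293732 (plus strand) for *Dppa4* and chr9:78367236-78367781 (minus strand) for *Dppa5a*. The *Dppa2* sequence differed at 1 of 120 bases from *Gm9788*, the *Dppa3* sequence at 1 from *Dppa3-ps* and the *Dppa4* sequence at 1 from *Gm14058*. The *Dppa5a* sequence differed at 4 bases from *Gm6083*. A 50-base read from a stretch without a capital could therefore be lost to the count unless its mate aligned to a stretch of its own, and how many reads were lost was not tested. Of the genes that share words with a Dppa gene, 4 were themselves listed, and the one with the highest values was *Pigp*, with 62 to 70 normalized counts in *Ctrl* and 43 in each *Tet iTKO* line.

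Normalized counts summed to between 4210784 and 4219665 per *Ctrl* library and between 3964824 and 3996522 per *Tet iTKO* library. *Tet1* had 682 to 716 normalized counts over the whole gene in *Ctrl* and 753 to 895 in *Tet iTKO*, *Tet2* had 170 to 249 and 211 to 268, and *Tet3* had 13 to 28 and 3 to 10. Whole-gene values cannot show the loss of the floxed exons, so they do not check the labels. Of the mESC markers, *Pou5f1*, *Sox2*, *Nanog*, *Zfp42*, *Esrrb* and *Epcam* were present in all lines and *Fut4* had 0 to 2 normalized counts. The *Tet iTKO* mean was 137% of *Ctrl* for *Epcam*, the gene of CD326, and 122% for *Esrrb*. It was 96.6% for *Sox2*, 81.8% for *Pou5f1*, 81.2% for *Nanog* and 79.0% for *Zfp42*. All but *Sox2* differed at a limma adjusted p under 0.05. With GC content and exon length corrected for, only *Epcam* (higher) and *Pou5f1* (lower) did. The 10 feeder fibroblast markers summed to 327 to 340 normalized counts in *Ctrl* and 530 to 602 in *Tet iTKO*. Of the 5 of them that were tested, 3 were higher in *Tet iTKO* (*Col1a1*, *Col1a2* and *Col3a1*) and none lower. With GC content and exon length corrected for, only *Col3a1* of the 5 was higher. Among all genes tested, 16.4% were higher before and 9.72% after this correction. *Thy1*, the marker used to remove feeders, had 30 to 46 normalized counts in *Ctrl* and 23 to 47 in *Tet iTKO*. *Postn*, *Lum*, *Twist1*, *Dcn* and *Fbn1* had at most 15 in any line. The 6 primitive endoderm markers summed to 22 to 33 in *Ctrl* and 25 to 40 in *Tet iTKO*, and the 6 trophoblast markers to 26 to 50 and 47 to 53. *Gata4* had 2, 7 and 10 in *Ctrl* against 21, 12 and 27 in *Tet iTKO* (limma adjusted p = 0.03, and 0.091 with the correction). *Sox7* had 17, 24 and 7 against 2, 9 and 9 (limma adjusted p = 0.15). The other endoderm markers were too low to be tested. The part of feeder, endoderm and trophoblast cells in the results below was not tested.

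Of the 4 Dppa genes, 3 differed between the groups. *Dppa4* was lower in *Tet iTKO* mESC and *Dppa3* higher, each by less than 1.5-fold without correction. *Dppa5a* was lower before but higher after a correction for GC content and exon length, and *Dppa2* did not pass the test. Over all 10524 genes tested with limma, 16.4% were higher and 18.4% lower in *Tet iTKO* at a Benjamini-Hochberg adjusted p under 0.05, so that a call in either direction was common in these lines. The 2 groups did not overlap for *Dppa3*, *Dppa4* and *Dppa5a*, as for 44.1% of all genes tested. The median log2 fold change of *Tet iTKO* over *Ctrl* (log2FC) was 0.01 over all genes and -0.25 over the 4 Dppa genes, and -0.06 and 0.12 after the correction. In RNA from whole populations, fewer cells that express a gene and less of its RNA per cell cannot be told apart.

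**Figure D1:**
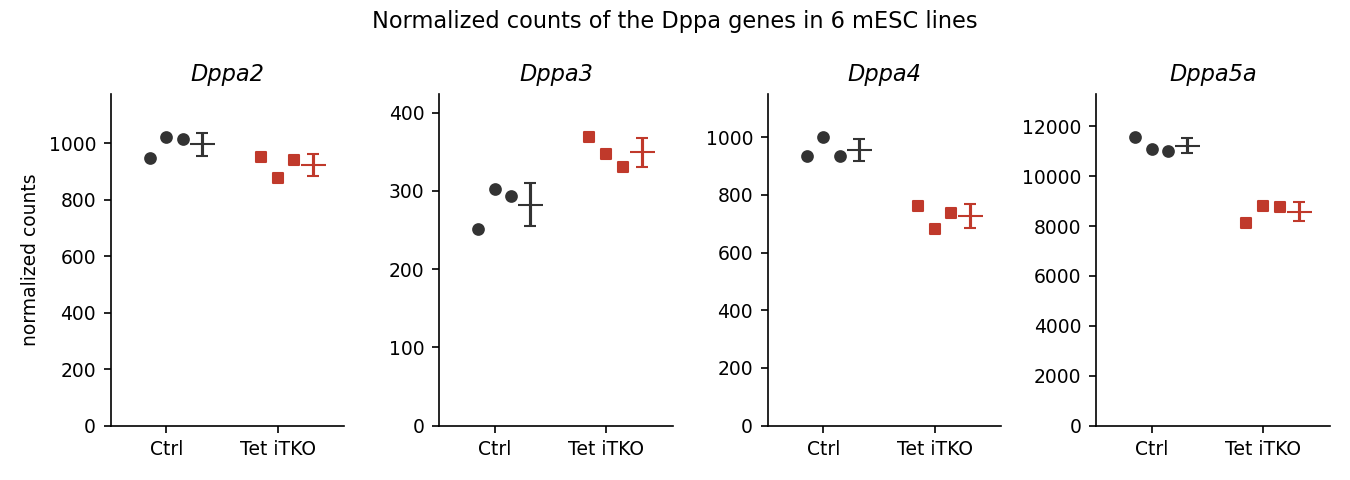
Normalized counts (vertical axes, from 0, a scale for each gene) of the 4 Dppa genes in each *Ctrl* (black circles) and *Tet iTKO* (red squares) line, with the mean ± SD of 3 lines beside the points. The groups overlap for *Dppa2* and do not overlap for the other genes; *Dppa5a* lies between 8136 and 11578, far above the rest.

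*Dppa5a* (ENSMUSG00000060461.5, chromosome 9 of GRCm38 from 78367052 to 78368177, minus strand) was by far the most abundant of the 4. The *Ctrl* lines had 11578, 11088 and 11011 normalized counts and the *Tet iTKO* lines 8136, 8809 and 8774. It ranked 22nd among all listed genes by its mean over the 6 lines, and 2nd by *Ctrl* level per kilobase of exon. On that scale it had 18140 ± 497 (SD, n = 3) normalized counts per kilobase in *Ctrl* against 13850 ± 612 (SD, n = 3) in *Tet iTKO*. *Dppa4* followed with 575.4 ± 23.3 and 436.8 ± 25.2 normalized counts per kilobase, both SD with n = 3. *Dppa2* had 407.2 ± 16.8 in *Ctrl* against 377.5 ± 16.3 in *Tet iTKO*, and *Dppa3* had 316.5 ± 30.7 in *Ctrl* against 391.3 ± 21.4 in *Tet iTKO* (SD, n = 3, per kilobase). Per kilobase, the order *Dppa5a*, *Dppa4*, *Dppa2*, *Dppa3* held in each *Ctrl* line. In normalized counts *Dppa2* lay above *Dppa4* in each, with 949, 1023 and 1017 against 934, 1001 and 934. The order of *Dppa4* and *Dppa2* thus rests on their exon lengths, 1662 and 2447 bases. In *Tet iTKO* the *Dppa2* and *Dppa3* levels per kilobase overlapped, with *Dppa3* above *Dppa2* in lines 1 and 2 and below it in line 3.

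All *Tet iTKO* lines lay below all *Ctrl* lines for *Dppa5a*, at 76.4% of the *Ctrl* mean. The log2FC was -0.39 (standard error 0.04, 95% interval -0.47 to -0.31, limma adjusted p = 4.1e-10). After the correction for GC content and length this direction turned, to 0.12 (standard error 0.04, limma adjusted p = 0.011), and with a correction for length alone, added after the data were seen, it was 0.03 (limma adjusted p = 0.59), against -0.44 with one for GC content alone (limma adjusted p = 4.1e-12). The exons of *Dppa5a* span 619 bases, and 0.526% of the tested genes had exons as short or shorter. Of the 76 tested genes with exons of at most 700 bases, 65 had a negative log2FC, with a median of -0.45. At -0.39 without correction, *Dppa5a* lay between the quartiles of these 76 genes, -0.66 and -0.21, and not below their median. Thus its fall did not exceed that of genes with short exons in general, and with the correction for GC content and length no fall was left.

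*Dppa3* (ENSMUSG00000046323.2, chromosome 6 of GRCm38 from 122626410 to 122630272, plus strand) was the least abundant of the 4 in *Ctrl*. The *Ctrl* lines had 251, 302 and 294 normalized counts and the *Tet iTKO* lines 369, 347 and 331. Every *Tet iTKO* line lay above every *Ctrl* line, with a mean at 124% of *Ctrl*. The log2FC was 0.31 (standard error 0.11, 95% interval 0.09 to 0.52, limma adjusted p = 0.021). The call rested on single lines: the log2FC was 0.23 without *Ctrl* line 1 (limma adjusted p = 0.12), 0.27 without *Tet iTKO* line 1 (limma adjusted p = 0.089) and 0.31 without *Tet iTKO* line 2 (limma adjusted p = 0.054). A variance fit without the trend on expression also ended it (limma adjusted p = 0.088). The spread between the *Ctrl* lines was 9.7% of their mean, where counting error alone would give 6% if 1 normalized count stood for 1 read.

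The short exons of *Dppa3*, 892 bases, set its rise against the general direction of genes of that size. Among the 143 tested genes with exons of 701 to 1000 bases, 116 had a negative log2FC and the median was -0.38. With the correction for GC content and length the log2FC of *Dppa3* grew to 0.78 (standard error 0.11, limma adjusted p = 2.5e-07). The correction left 9.72% of all genes higher and 20.7% lower in *Tet iTKO*, with 1016 and 2161 genes, against 1731 and 1934 without it. The rank correlation across 10457 genes between the log2FC and GC content was 0.258, and that with log2 exon length 0.251, across genes that are not independent replicates.

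**Figure D2:**
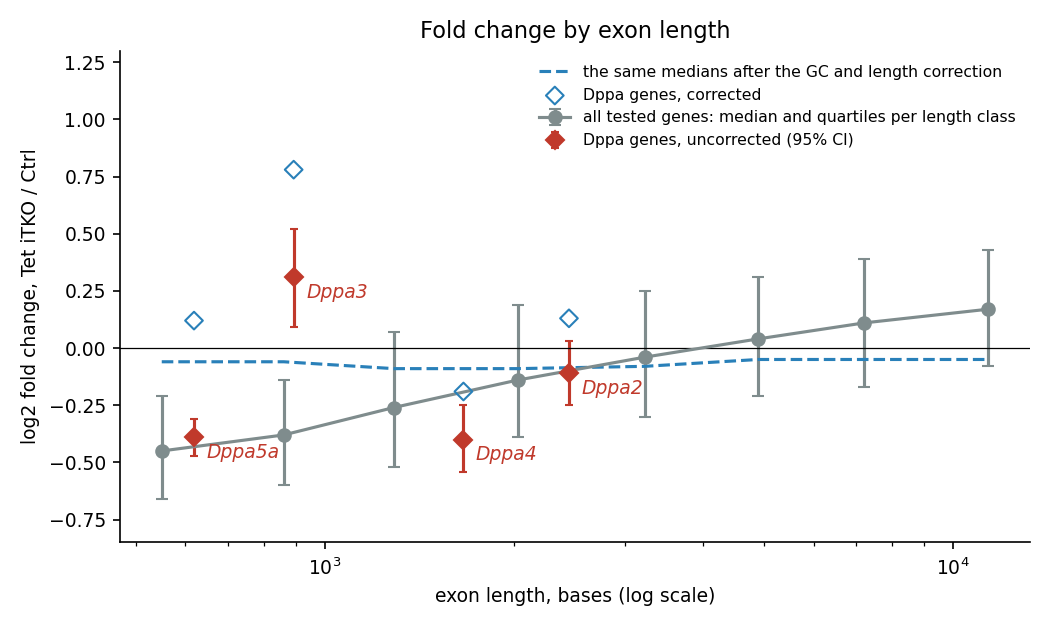
Log2 fold change (log2FC) between *Tet iTKO* and *Ctrl* (vertical axis) against exon length in bases (horizontal axis, log scale), with the median and quartiles of all tested genes in 8 length classes (grey), their medians after correction (dashed blue), and the Dppa genes before (red, with 95% intervals) and after (open blue) the correction. The grey medians run from -0.45 in the shortest class to 0.17 in the longest; *Dppa5a* sits near its class before the correction and at 0.12 after it, and *Dppa3* lies above its class in both.

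*Dppa4* (ENSMUSG00000058550.7) and *Dppa2* (ENSMUSG00000072419.4) lie in tandem on the plus strand of chromosome 16, with 9.7 kb between them. *Dppa4* spans 48283733 to 48294237 and *Dppa2* spans 48303908 to 48319723 in GRCm38. Their partner proteins act together, and in *Ctrl* their transcripts were at like normalized counts. *Dppa4* had 934, 1001 and 934 normalized counts in *Ctrl* against 762, 680 and 736 in *Tet iTKO*. The groups did not overlap, and the *Tet iTKO* mean was 75.9% of *Ctrl*. The log2FC of *Dppa4* was -0.40 (standard error 0.07, 95% interval -0.54 to -0.25, limma adjusted p = 3.2e-05). It kept its direction and passed the threshold under every alternative tried, with its smallest size, -0.19, after the correction for GC content and length (limma adjusted p = 0.034). The exons of *Dppa4* span 1662 bases. Among the 1402 tested genes with exons of 1501 to 2500 bases, 879 had a negative log2FC, with a median of -0.14 and a lower quartile of -0.39. Of all tested genes, 16.3% fell at least as far as *Dppa4* without correction.

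*Dppa2* had 949, 1023 and 1017 normalized counts in *Ctrl* against 951, 878 and 942 in *Tet iTKO*. The groups overlapped, since *Tet iTKO* line 1 lay above *Ctrl* line 1. The log2FC was -0.11 (standard error 0.07, limma adjusted p = 0.22), and its 95% interval ran from -0.25 to 0.03. With the correction for GC content and length the sign turned, to 0.13 (limma adjusted p = 0.16), again without passing the test, while the corrections for GC content alone and for length alone, added after the data were seen, gave -0.03 and -0.12.

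The log2 ratio of *Dppa2* to *Dppa4* within a line measures how far the partners moved apart. It was 0.06 ± 0.06 (SD, n = 3) in *Ctrl* against 0.35 ± 0.03 (SD, n = 3) in *Tet iTKO*, and the lines of the 2 groups did not overlap. The difference of 0.29 had p = 0.1 in an exact two-sided permutation test, the smallest that 3 lines against 3 allow, and 0.114 after Benjamini-Hochberg adjustment over the 8 ratios compared. The difference was 0.32 with the corrected values, so the ratio of the neighbours moved little with the correction that turned the sign of *Dppa2* itself.

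Of the other ratios, that of *Dppa3* to *Dppa4* was higher in *Tet iTKO* by 0.71 on the log2 scale and that of *Dppa3* to *Dppa5a* by 0.70, both without overlap of the lines and both with exact permutation p = 0.1. They were 0.97 and 0.66 with the corrected values. The ratio of *Dppa4* to *Dppa5a* was -3.55 ± 0.08 (SD, n = 3) in *Ctrl* against -3.56 ± 0.14 (SD, n = 3) in *Tet iTKO* (exact permutation p = 0.9), but the difference of -0.01 became -0.31 with the corrected values. Thus the matching falls of *Dppa4* and *Dppa5a* were seen only without the correction, while *Dppa3* stood above *Dppa4* and *Dppa5a* in *Tet iTKO* relative to *Ctrl* in both.

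**Figure D3:**
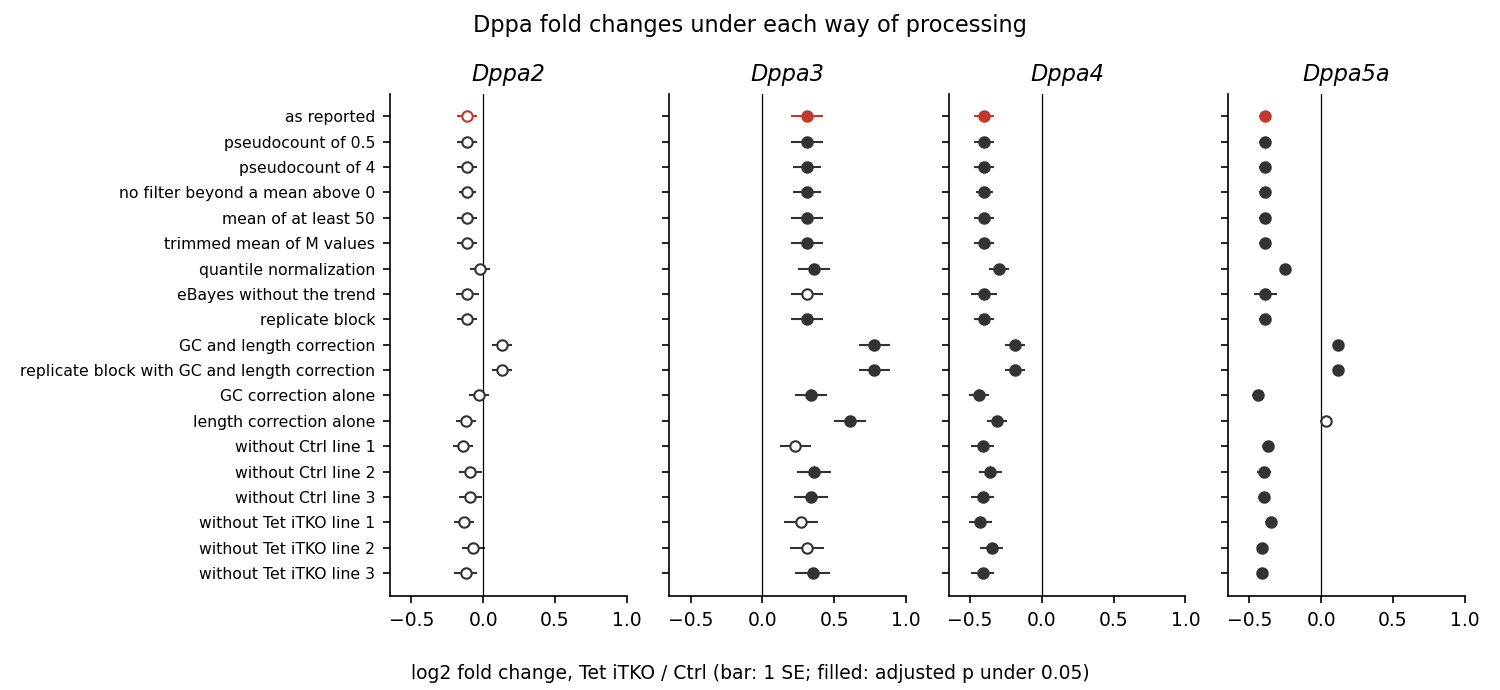
Log2FC (horizontal axes) with its standard error for each Dppa gene under 19 ways of processing (rows), filled where the limma adjusted p is under 0.05 and red for the values reported. *Dppa4* stays below 0 and filled in all rows, *Dppa3* stays above 0 but is open in 4, and the correction for GC content and length carries *Dppa5a* and *Dppa2* across 0.

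The families and pathways of the 4 proteins give the background for these values. Of the KH-domain genes on the list of the DPPA5 family, *Khdc1a*, *Khdc1b* and *Khdc1c* had 0 or 1 normalized count, and the 2 tested besides *Dppa5a* were lower in *Tet iTKO*. *Khdc3* had 481, 625 and 646 normalized counts in *Ctrl* against 83, 100 and 119 in *Tet iTKO*, a log2FC of -2.53 (standard error 0.13, limma adjusted p = 6e-17). *Ooep*, which lies 7.9 kb from *Dppa5a*, had 628, 556 and 604 normalized counts in *Ctrl* against 367, 387 and 375 in *Tet iTKO*, a log2FC of -0.66 (standard error 0.09, limma adjusted p = 1.5e-07). With the correction these were -2.66 and -0.46, both still lower. The paper had named *Khdc3* and *Ooep* (as *Khdc2*) as downregulated in these data, so their calls are not a separate result. The log2 ratio of *Dppa5a* to *Ooep* was higher by 0.27 in *Tet iTKO*, without overlap of the lines (exact permutation p = 0.1), and by 0.58 with the corrected values.

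The list of ES cell-associated transcripts (ECAT), named for their enrichment in mESC, holds the 4 Dppa genes and 7 others. Of the 7, 6 were lower and none higher, with a median log2FC of -0.50. Beside *Khdc3* and *Nanog* these were the F-box gene *Fbxo15* (-0.50), the Ras gene *Eras* (-0.60), the methyltransferase cofactor *Dnmt3l* (-0.49) and the TGF-beta family ligand *Gdf3* (-0.54), all on the log2 scale. *Sox15* did not pass the test, at -0.04 (limma adjusted p = 0.82) and 0.10 with the correction (limma adjusted p = 0.58), but was lower with the correction for GC content alone, at -0.39 (limma adjusted p = 0.011). With the correction 5 of the 7 were lower and the median was -0.37, with *Nanog* at -0.10 (limma adjusted p = 0.24). Of the 13 naive pluripotency genes, 2 were higher and 5 lower, with a median of -0.05, and after the correction none was higher and 4 were lower. Quantile normalization gave 4 higher and 3 lower, and a fit without the variance trend none higher and 1 lower. Of the 7 tested genes of the formative and primed epiblast, 6 were higher and none lower, with a median of 0.81, and after the correction 4 were higher and 1 lower. The paper had named *Otx2* (0.81), *Sall2* (2.77) and *Krt18* (2.33) as increased in these data, so their calls are not a separate result. The remaining tested genes were *Lef1* at 1.23, *Zic2* at 0.27, *Dnmt3a* at 0.25 and *Dnmt3b* at 0.24.

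**Figure D4:**
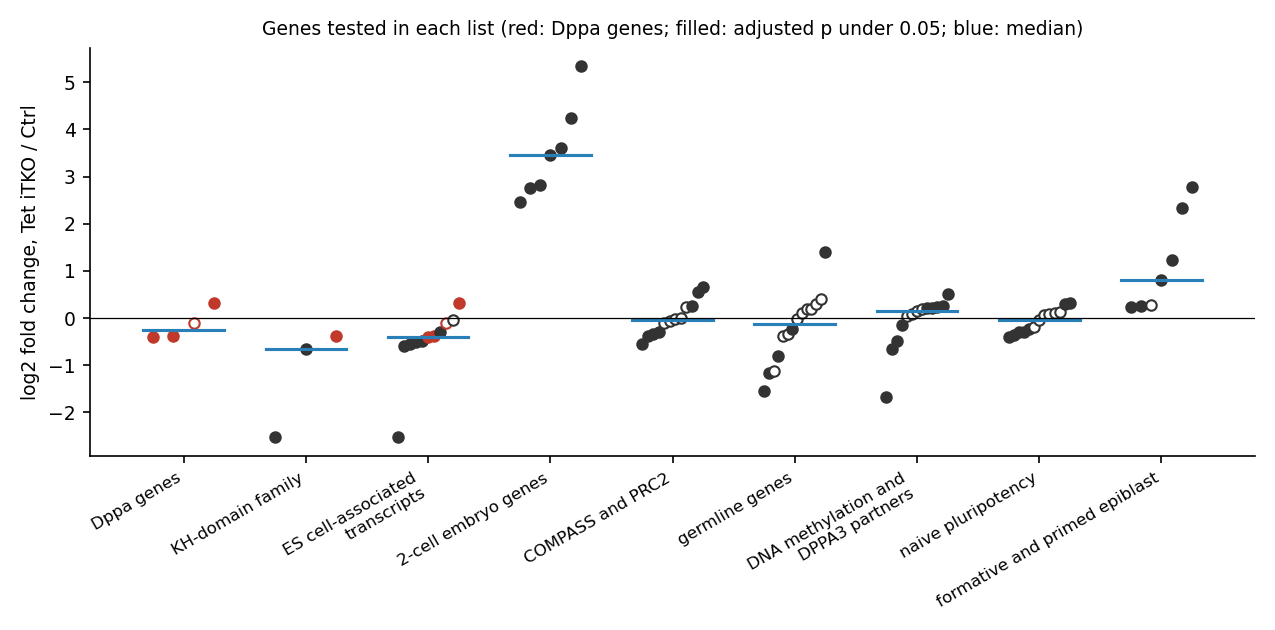
Log2FC (vertical axis) of each tested gene in the lists, with Dppa genes in red, genes past an adjusted p of 0.05 filled and the median of each list in blue, before the correction for GC content and length. *Khdc3* is the lowest point of the KH-domain and ECAT lists, and the 7 points of the 2-cell embryo genes passed the filter through their *Tet iTKO* values.

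The list of 2-cell embryo genes that act downstream of DPPA2 and DPPA4 had 22 genes, of which 15 were in the files. The 15 summed to 23 to 39 normalized counts in a *Ctrl* line and 342 to 389 in a *Tet iTKO* line. All had *Ctrl* means under the filter of 10, so the 7 that were tested passed it through *Tet iTKO* and had to be higher there, and their number and median are not read as a result. *Usp17le*, a deubiquitinase gene, had 0, 2 and 1 normalized counts in *Ctrl* against 82, 66 and 71 in *Tet iTKO*, at least 24.3-fold higher against a floor of 3 counts for the group mean. *Usp17lb* of the same family had 16, 2 and 7 in *Ctrl* against 56, 91 and 101 in *Tet iTKO*. *Zscan4c*, of a family that marks a passing 2-cell-like state, had 1, 3 and 2 in *Ctrl* against 44, 33 and 27 in *Tet iTKO*, at least 11.6-fold higher, and *Zscan4d* had 6, 16 and 5 against 56, 54 and 70. *Duxf3*, the listed *Dux* gene, had 0 or 1 normalized count in *Ctrl* and 0 to 3 in *Tet iTKO*, too few for a comparison. *Spz1*, *Tdpoz4* and *Gm4340* had 0 in every line, *Zfp352* at most 2 and *Tdpoz3* at most 4. *Tmem92*, not tested, had 0 to 2 in *Ctrl* and 15 to 23 in *Tet iTKO*. The 7 tested genes were all of the Zscan4 and Usp17l families, so the sum does not describe each gene of the list. Increased expression in the *Zscan4* cluster had been reported by the paper, so it is not a separate result. These gene families have near-identical copies that share reads, so the values of single members are uncertain. In the same *Tet iTKO* lines *Dppa4* was lower and *Dppa2* did not pass the test.

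The list of COMPASS and PRC2 subunits holds the complexes that meet DPPA2 and DPPA4 at bivalent promoters. Of 12 tested, 3 were higher and 4 lower, and the median log2FC was -0.03. The shares among all genes tested were 16.4% higher and 18.4% lower, and 9.72% and 20.7% after the correction. *Dpy30*, a small subunit of COMPASS, fell from 1753, 1730 and 1732 normalized counts in *Ctrl* to 1245, 1236 and 1111, a log2FC of -0.54 (limma adjusted p = 5e-09), but with the correction it was -0.09 (limma adjusted p = 0.25). The PRC2 subunits *Ezh2* (-0.30) and *Eed* (-0.37) were lower and stayed so with the correction, at -0.31 and -0.32. *Kmt2b*, a COMPASS methyltransferase, was higher at 0.65, and was at -0.01 after the correction (limma adjusted p = 0.99). None of the 12 was higher after the correction. The number higher was 1 in each of the fits without the variance trend, without the filter, with the correction for GC content or length alone, and without *Ctrl* line 2, *Tet iTKO* line 1 or *Tet iTKO* line 2.

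Germline genes whose promoters carry DNA methylation outside the germline were a further list. Of 14 tested, 1 was higher and 4 were lower, with a median of -0.12, beside 16.4% higher and 18.4% lower among all genes tested. The higher gene, *Mov10l1*, had 24, 9 and 9 normalized counts in *Ctrl* against 43, 70 and 14 in *Tet iTKO*, and its call was lost without the variance trend, without the filter, with quantile normalization and without any 1 of *Ctrl* lines 2 and 3 and *Tet iTKO* lines 1 and 2. *Dazl*, an RNA-binding gene of germ cells, had 191, 264 and 240 normalized counts in *Ctrl* against 113, 52 and 82 in *Tet iTKO*, a log2FC of -1.54 (standard error 0.19, limma adjusted p = 4.3e-08). *Rpl10l*, a ribosomal protein gene of the testis that may share reads with its parent *Rpl10*, fell by 1.16 on the log2 scale (limma adjusted p = 1.5e-08). Both were also lower with the correction, at -1.24 and -0.84. *Hormad1*, of the meiotic chromosome axis, was at -0.80 before it (limma adjusted p = 6.1e-05) and -0.35 after it (limma adjusted p = 0.068).

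Of the 13 genes of DNA methylation enzymes and DPPA3 partners, 5 were higher and 4 lower, with a median of 0.14. After the correction 1 was higher and 5 lower. The shares among all genes tested were 16.4% higher and 18.4% lower, and 9.72% and 20.7% after the correction. The counts for the 13 include the floxed genes *Tet1* (0.21, higher) and *Tet3* (-1.67, lower, and -2.16 with the correction), which are not read as a response. The median is the value of *Tet2*, also floxed. *Uhrf1*, the gene of the protein that DPPA3 binds, had 2465, 2325 and 2533 normalized counts in *Ctrl* against 2186, 2191 and 2231 in *Tet iTKO*. Its log2FC was -0.15 (standard error 0.05, limma adjusted p = 0.025), -0.32 with the correction and -0.02 with quantile normalization (limma adjusted p = 0.82). The call for *Uhrf1* was lost without *Ctrl* line 1, *Ctrl* line 3, *Tet iTKO* line 1 or *Tet iTKO* line 2, where the log2FC was -0.14, -0.12, -0.14 and -0.14 and the limma adjusted p 0.054, 0.12, 0.061 and 0.069. *Dnmt1* was at 0.21 (limma adjusted p = 0.0088) and at -0.15 with the correction (limma adjusted p = 0.067), with 0.18 without *Ctrl* line 3 (limma adjusted p = 0.05) and 0.17 without *Tet iTKO* line 3 (limma adjusted p = 0.071). Without the variance trend the calls for *Uhrf1* (limma adjusted p = 0.22) and *Dnmt1* (limma adjusted p = 0.13) were also lost, and of the list none was higher and 2 were lower. The number higher was 3 without *Ctrl* line 3 or *Tet iTKO* line 3, and the number lower 2 without *Ctrl* line 1 or *Tet iTKO* line 2. *Pcna*, the replication clamp, was lower in both, at -0.65 and -0.46.

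Genes within 200 kb of the Dppa genes were examined because the Dppa loci hold other genes used in early development. No annotated gene overlaps any of the 4. On chromosome 16 the next tested gene beyond *Dppa2* is *Morc1*, 111.5 kb away, a gene of transposon silencing in germ cells. *Morc1* had 646, 592 and 499 normalized counts in *Ctrl* against 309, 316 and 285 in *Tet iTKO*, a log2FC of -0.92 (standard error 0.10, limma adjusted p = 1.5e-09) and -0.93 with the correction. It lay lower than *Dppa4* on the log2 scale, and *Dppa2*, between them, did not pass the test.

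Around *Dppa3*, 7 genes were tested, of which 2 were higher and 2 lower, beside 16.4% higher and 18.4% lower among all genes tested. *Gdf3*, 16.3 kb away, had 1567, 1588 and 1710 normalized counts in *Ctrl* against 1145, 1128 and 1082 in *Tet iTKO*. *Nanog*, 77.2 kb away on the other side, had 1339, 1259 and 1181 in *Ctrl* against 1056, 991 and 1020 in *Tet iTKO*, a log2FC of -0.30 (limma adjusted p = 0.00038) that was -0.10 with the correction (limma adjusted p = 0.24). The glucose transporter gene *Slc2a3*, 97.5 kb away, had 2267, 2245 and 2205 in *Ctrl* against 3960, 4053 and 3994 in *Tet iTKO*, a log2FC of 0.84 (limma adjusted p = 3.3e-16) and 0.72 with the correction. *Rimklb*, 127.6 kb away, had 202, 179 and 218 in *Ctrl* against 226, 267 and 249 in *Tet iTKO*, a log2FC of 0.31 (limma adjusted p = 0.05) and 0.37 with the correction. The call for *Rimklb* was lost without the variance trend (limma adjusted p = 0.1), with the correction for length alone (0.17, limma adjusted p = 0.3), without the filter (limma adjusted p = 0.079) and without *Ctrl* line 1 or 2 or *Tet iTKO* line 2 or 3, where the log2FC was 0.32, 0.23, 0.25 and 0.30. The log2 ratio of *Dppa3* to *Nanog* was higher in *Tet iTKO* by 0.61, without overlap of the lines (exact permutation p = 0.1), and by 0.88 with the corrected values.

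Around *Dppa5a*, 7 of the 16 listed genes were tested, with 4 lower and none higher, beside 18.4% lower and 16.4% higher among all genes tested. Besides *Ooep* the 4 lower genes were the glutathione transferase gene *Gsta4*, 157.7 kb away, with a log2FC of -0.58 (limma adjusted p = 5.4e-11) and -0.29 with the correction, the translation factor gene *Eef1a1*, 110.3 kb away and with many near-identical copies, at -0.29 (limma adjusted p = 2.2e-09) and -0.16, and *Mto1*. *Mto1*, 80.0 kb away, was at -0.47 (limma adjusted p = 0.01) and -0.50 with the correction. Unlike *Dppa5a*, these 4 genes kept their direction with the correction.

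**Figure D5:**
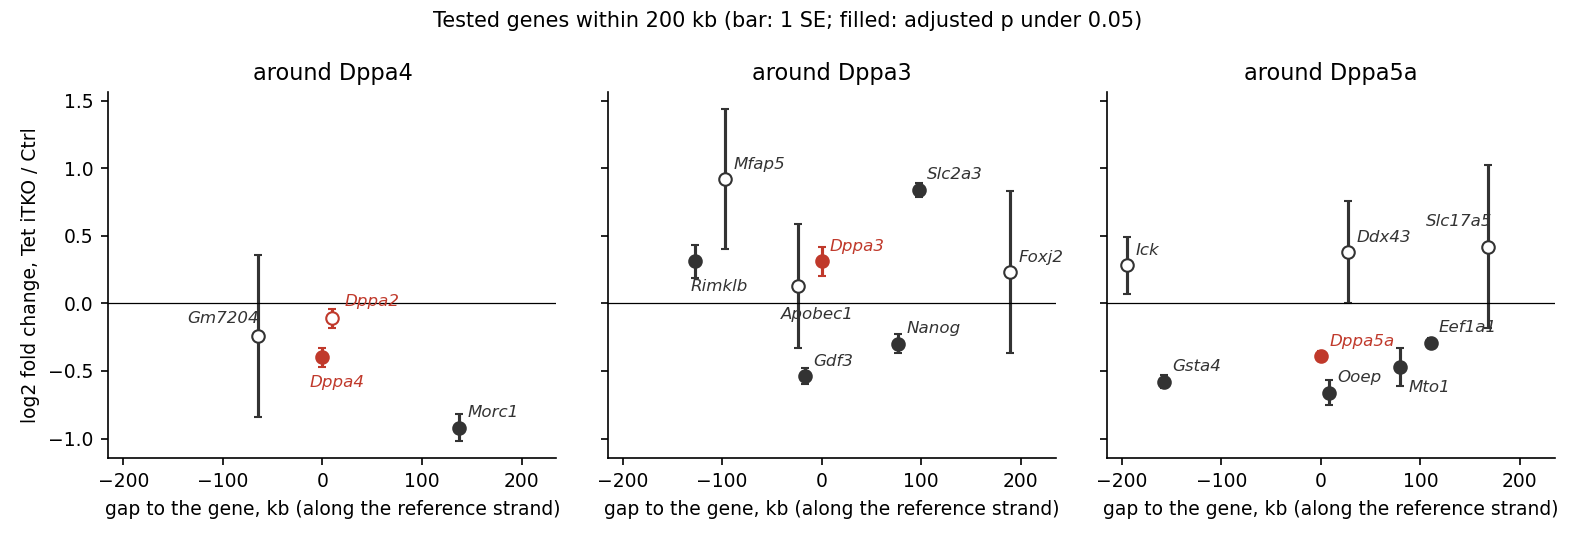
Log2FC with its standard error (vertical axis) of the tested genes within 200 kb of *Dppa4* (with *Dppa2*), *Dppa3* and *Dppa5a*, by the gap to that gene in kb, with Dppa genes in red and genes past an adjusted p of 0.05 filled, before the correction. *Morc1* at -0.92 is the lowest point, and *Slc2a3* at 0.84 and *Gdf3* at -0.54 lie above and below *Dppa3*.

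The genes most like each Dppa gene were found by Pearson's correlation of log2(normalized count + 1) over the 6 lines among 7788 other genes with a symbol and a mean of at least 50, and are given as a description. For *Dppa5a* these were *Clmp* (0.999), *Pole4* (0.998) and *Hddc2* (0.997), and 573 genes had a correlation above 0.95. For *Dppa4* they were *Htra1* (0.997), *Mrps25* (0.996) and *Zfp985* (0.996), with 333 genes above 0.95. For *Dppa3* they were *Cchcr1* (0.995), *Usp33* (0.995) and *Skil* (0.994), with 88 above 0.95, and for *Dppa2* they were *Clca3b* (0.996), *Ddost* (0.991) and *Phf23* (0.990), with 29. None of the 12 genes was shared between Dppa genes. The 6 points share 2 groups, so a gene that differs between the groups correlates with every other gene that does.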

How the data were processed

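Poly(A)+ RNA of 6 mESC lines was sequenced by the authors with Smart-Seq2 and paired reads of 50 bases. Per the labels and methods, reads were aligned with STAR (the submitters' processing notes name mm9), keeping unique alignments, counted per gene with HTSeq 0.7.1 and divided by the DESeq2 1.26.0 size factor in R 3.5.2. Counting used a strand setting although Smart-Seq2 keeps no strand. As deposited, the values have the unit score: they are normalized counts rounded to whole numbers, not read counts, and count models were not used. The reads behind each library are not given by these values, and PCR copies were not told apart by molecular identifiers, so floors (3 counts) cover counting error only.

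Identifiers were matched, without version, to mouse symbols, which 20775 of 22380 had. Lengths, GC contents and coordinates came from GENCODE M21 (GRCm38), and 10457 of the 10524 tested genes had a length and a GC content. The length is that of all annotated exons of a gene merged, whether used in these cells or not. The GC content is that of its longest transcript. No coordinates were converted. The groups entered limma 3.58.1 (R 4.3.3) as log2(normalized count + 1), genes below a mean of 10 left out, with a trended eBayes and Benjamini-Hochberg adjustment over all 10524 genes, so fold changes of low genes are understated. Within-line ratios were tested by exact permutation, two-sided. GC content and log2 exon length were corrected in each library by loess (span 0.3). Alternatives were pseudocounts of 0.5 and 4, filters at a mean above 0 and at 50, trimmed means of M values, quantile normalization, no variance trend, a replicate block, the correction with and without that block, and each line left out. Corrections for GC content or length alone were added after seeing the data. The fits were tested on simulated data. Tables were made with Python 3.11.15, pandas 2.3.3 and NumPy 2.4.6, and figures with matplotlib 3.10.9.

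The Dppa genes and the gene lists were chosen with earlier results of these data known. Named genes were the 4 Dppa genes, list genes, *Tet1*, *Tet2* and *Tet3*, genes within 200 kb of a Dppa gene, and for each Dppa gene the 3 most correlated genes with a mean of at least 50.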

Additional observations from a re-analysis of the deposited data

How the results depend on the processing

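*Dppa4* and the ratio of *Dppa2* to *Dppa4* (0.27 to 0.32 without each line in turn) kept their direction under the alternatives tried, and *Dppa4* its call (-0.43 to -0.35 without each line). The correction for GC content and length turned *Dppa2* to 0.13, also with the replicate block, and *Dppa5a* to 0.12, also with the replicate block; the correction for length alone, added after seeing the data, turned *Dppa5a* to 0.03. With and without the block, the correction for GC content and length also turned *Kmt2b* to -0.01 and *Dnmt1* to -0.15, and *Sox15* to 0.10 (0.27 with that for length alone, -0.39 and called with that for GC content alone, and from -0.16 to 0.09 without a line). Without a line, *Dppa5a* ran from -0.41 to -0.35, *Dppa2* from -0.14 to -0.07 and *Dppa3* from 0.23 to 0.36, and the call for *Dppa3* at 0.31 was lost without the variance trend. The number of Dppa genes called was 3, and 2 without the variance trend, with the correction for length alone, and without *Ctrl* line 1, *Tet iTKO* line 1 or *Tet iTKO* line 2. Genes higher in *Tet iTKO* numbered 1731, and 1075 without the variance trend, 1016 with the correction, 1026 with the correction and the replicate block, and 521 at a log2 fold change of 1 or more. Genes lower numbered 1934, and 1217 without the variance trend and 137 at that fold. The numbers at that fold are smaller by construction, and the cause of the others was not tested. Same-numbered lines did not deviate together (correlations of 0.00071, -0.0054 and -0.0031), so the numbers do not pair the lines. The replicate block gave 1762 higher and 1980 lower genes and left *Dppa2* at -0.11, *Dppa3* at 0.31, *Dppa4* at -0.40, *Dppa5a* at -0.39 and the ratio at 0.29. With 3 lines a group the design cannot give a permutation p below 0.1, and the spread at about 280 normalized counts limits *Dppa3*.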
